A study of Homo sapiens with 8 samples.

Results

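XRN1 and XRN2 are the 2 members of the human XRN family of 5′–3′ exoribonucleases, and they were taken by gene symbol from the 10105 genes of the count table. HEK293T cells, either WT or XRN1-null, had been profiled by RNA-Seq and Ribo-Seq, and 2 biological replicates per genotype and assay gave 8 libraries. HEK293T is an established line of human embryonic kidney cells, and the labels name no other agent or allele. Cells of both genotypes grew on 15 cm dishes for 24 h before harvest. XRN1-null cells had been made with Cas9 and a guide RNA against exon 6 of XRN1. Per the methods they carry a short deletion in that exon that shifts the reading frame, their XRN1 transcripts keep the intron before it, and no XRN1 protein was detected by western blot. The number of clones behind the line is not given in the sources used here.

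An mRNA in the cytoplasm is shielded by its cap. Once DCP2, helped by DCP1, EDC4, DDX6 and PATL1, has cut the cap off, the bare 5′ end becomes a substrate of XRN1, which then digests the transcript nucleotide by nucleotide. XRN2 is its nuclear paralog and trims or degrades RNA from exposed 5′ ends behind RNA polymerase II, where it takes part in transcription termination, and in the maturation of ribosomal and small nucleolar RNAs. The question was whether XRN2 differs in mRNA, in ribosome-protected fragments (RPF) or in their ratio, the translational efficiency (TE), once XRN1 is lost.

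XRN1 lies on chromosome 3 (142025449 to 142166904, minus strand, GRCh37, the coordinates of hg19), with 41 exons and a coding sequence of 5082 nt in its reference transcript. XRN2 lies on chromosome 20 (21283969 to 21370463, plus strand), with 30 exons and 2850 coding nt. Exon 6 of XRN1, at chr3:142142402-142142484, is shown because the edit was made in it. It is coding throughout, and the capitals mark the 20-nt guide site (chr3:142142420-142142439, minus strand), which is followed by the TGG motif that Cas9 needs.
exon 6: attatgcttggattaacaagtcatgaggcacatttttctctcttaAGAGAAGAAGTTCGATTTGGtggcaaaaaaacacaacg

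In the annotated spliced transcript, a frameshift at the predicted cleavage point met a stop after 757 or 773 nt of the annotated coding sequence, 14.9% or 15.2% of it, depending on the frame. A deletion of the length given in the methods, at this point, takes the frame with the later stop. Both shifted frames ended in the first part of the coding sequence, just after exon 6. Transcripts that keep the intron were not analysed here. The deposited counts hold 1 value per gene and library, so where along XRN1 the reads and footprints lay was not analysed here.

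Exact copies of the coding sequences were searched for. Of the 5054 overlapping 29-nt words of the XRN1 coding sequence and the 2822 of XRN2, 0 occurred in the other gene and 0 occurred elsewhere in GRCh37 on either strand, 29 nt being one of the footprint lengths that had been selected. Untranslated exons and inexact copies were not searched. The annotation places RNU6-1294P and RNU1-100P, copies of small nuclear RNAs, inside XRN1 on its own strand. A long non-coding gene on the other strand overlaps XRN2. The RNA-Seq kit is not stated to keep strand, so reads from that gene and from XRN2 could not be told apart.

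Library totals ranged from 33757487 to 38145433 counts in RNA-Seq and from 1921641 to 4399542 in Ribo-Seq, with the shallowest library being WT Ribo-Seq replicate 1. Values below are CPM, the usual depth-scaled counts, with the TMM factors of edgeR applied within each assay. They are relative levels, so a change in the total mRNA per cell would not be seen. A gene was called where the FDR of edgeR's quasi-likelihood test (Benjamini-Hochberg) was under 0.005. Of 5 genes typical of HEK293T cells, the neurofilament genes NEFL and NEFM and the related INA were in the table and PAX2 and LHX1 were not. In mRNA NEFM had a log2 fold change of −0.59 (edgeR FDR = 0.00455) and INA of −0.46 (edgeR FDR = 0.00133). Both were called lower, as were 23.2% of all genes, while NEFL had 0.18 and was not called. Of 10 markers of blood, liver, fibroblast and skin epithelium only COL1A1, a fibroblast collagen, was in the table, with mRNA at 14.6 ± 1.05 CPM in WT against 37.1 ± 0.321 CPM in XRN1-null libraries (SD, 2 per group). Its mRNA was called higher (log2 fold change 1.34, edgeR FDR = 1.72e-05), as was that of 22.9% of all genes. Its footprints were not called (log2 fold change 1.18, edgeR FDR = 0.00642). The part of these markers in the results was not tested.

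The mRNA of XRN1 itself was far higher in the cells that lack the protein. XRN1 had 33.5 and 33.0 CPM in the WT RNA-Seq libraries (1187 and 1084 counts) and 282 and 253 CPM in the XRN1-null libraries (10655 and 9834 counts). The XRN1-null libraries were both above the WT libraries, as were those of 41% of all genes. The level rose 8.03-fold (95% interval 7.06 to 9.14), which is 3.01 on the log2 scale with a standard error of 0.0797 (edgeR quasi-likelihood FDR = 1.92e-06). In the same test 22.9% of all genes were called higher and 23.2% lower. XRN1 had the ninth-ranked change from the top among the 10105 genes, and leaving out single RNA-Seq libraries gave log2 fold changes of 2.92 to 3.08.

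Its footprint values were lower instead. XRN1 had 34.4 and 49.8 CPM in the WT Ribo-Seq libraries (66 and 217 counts) and 22.6 and 18.4 CPM in the XRN1-null libraries (91 and 59 counts). Both XRN1-null libraries were below both WT libraries, as were those of 32.3% of all genes (43.7% in mRNA). The means were 42.1 ± 10.9 and 20.5 ± 2.96 CPM (SD, 2 libraries each), and the log2 fold change was −1.08 (standard error 0.201, 95% interval −1.52 to −0.65), which missed the threshold (edgeR quasi-likelihood FDR = 0.00641). By comparison, 1.14% of all genes were called lower and 0.633% higher in RPF. The value depended on single libraries, being −0.72 without WT Ribo-Seq replicate 2 (FDR = 0.01 from edgeR) and −1.26 without WT Ribo-Seq replicate 1, where it passed the threshold, as it did without XRN1-null Ribo-Seq replicate 1 (−1.23, FDR = 0.00193 from edgeR). It did not pass without XRN1-null Ribo-Seq replicate 2 (−0.94, FDR = 0.0165 from edgeR). It also passed with the library totals as scaling (FDR = 0.0042 from edgeR) and in edgeR's likelihood ratio test (FDR = 2.05e-05), but not in DESeq2 (FDR = 0.0129). Footprints of XRN1 did not disappear, and 59 to 91 counts were left per XRN1-null library.

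**Figure D1:**
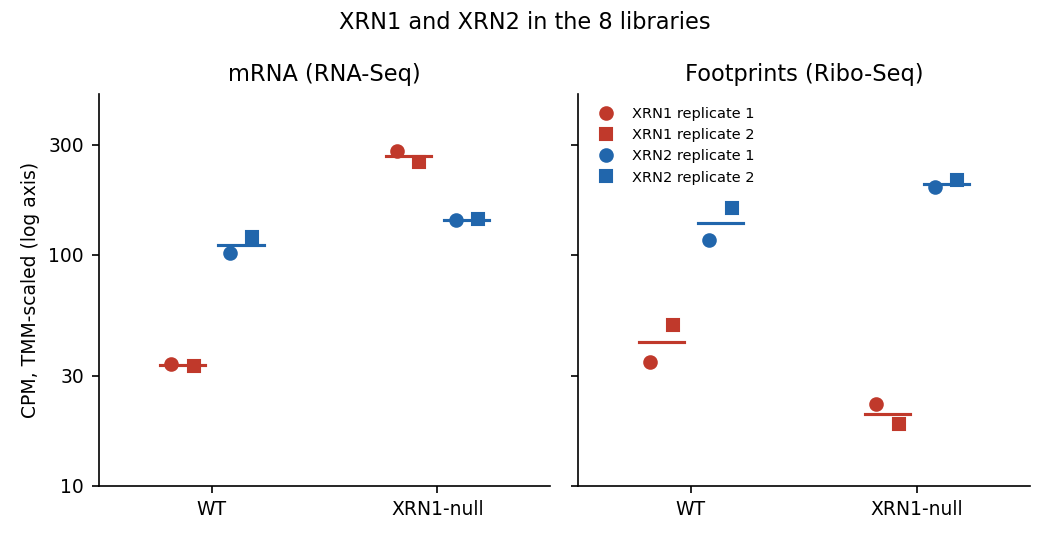
CPM (log axis) of XRN1 (red) and XRN2 (blue) in each RNA-Seq library (left) and each Ribo-Seq library (right), with circles for replicate 1, squares for replicate 2 and lines for the mean of 2. XRN1 mRNA lies at 33.0 and 33.5 CPM in WT and at 253 and 282 CPM in XRN1-null cells, its footprints are lower in both XRN1-null libraries, and XRN2 is higher in both XRN1-null libraries of each assay.

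With higher mRNA and lower footprint values, the TE of XRN1 dropped in XRN1-null cells. In WT cells the ratio of RPF to mRNA CPM was 1.27, and it lay between 1.03 and 1.51 over the 4 pairings of a Ribo-Seq with an RNA-Seq library. In XRN1-null cells the ratio was 0.0768, between 0.0654 and 0.0894 over the 4 pairings. These ratios are not per length, so they compare a gene with itself and not with other genes. In the annotated spliced transcript of XRN1 the shifted frame stops after 757 or 773 of 5082 nt. The ratios of WT and XRN1-null cells thus cover unlike lengths of reading frame, and the part of this in the change was not tested. The TE fell by 4.09 on the log2 scale, or 17.1-fold (standard error 0.22, 95% interval −4.57 to −3.61, FDR = 1.66e-06 from edgeR's quasi-likelihood test of the interaction of assay and genotype). In this test the TE of 1.78% of all genes was called lower and that of 0.0495% higher. Fits that left out single libraries gave −4.27 to −3.72, and all were called.

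Higher mRNA beside lower footprint values was found in a minority of genes. Of the 2313 genes called higher in mRNA, 390 had a log2 fold change of RPF below 0, and 1 of them, XRN1 itself, had one of −1.08 or lower. Over the 8 libraries, after centring on the WT mean of each assay, the genes nearest to XRN1 were TYW1B, C3orf62, CCT6P3, CCT6P1 and TRPV1, at distances of 1.33 to 1.68 on the log2 scale. The median distance was 4.55 over the 8045 genes with enough counts to compare. TYW1B is a paralog of a gene for a tRNA-modifying enzyme, CCT6P3 and CCT6P1 are pseudogenes of a chaperonin subunit, and TRPV1 encodes an ion channel. Their mRNA log2 fold changes were 2.56 to 3.48, and their RPF log2 fold changes ran from −0.80 for C3orf62 to 0.03 for TRPV1. As these genes were picked by distance over the same libraries, some likeness to XRN1 follows from the choice. The paralogs and pseudogenes among them can share reads with near copies, so their values are uncertain.

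**Figure D2:**
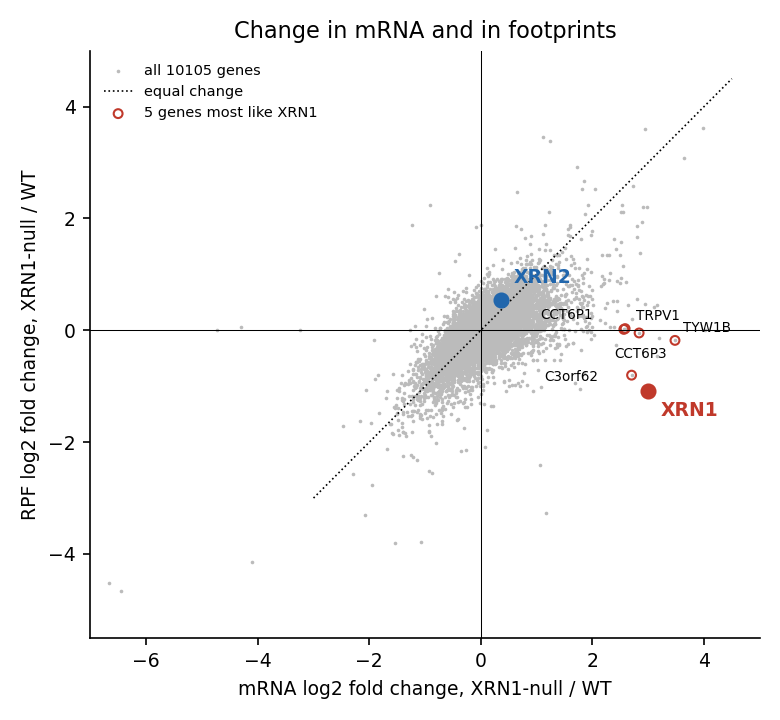
Log2 fold change of RPF against that of mRNA between XRN1-null and WT cells for all 10105 genes (grey), with XRN1 (red), XRN2 (blue) and the 5 genes nearest to XRN1 over the 8 libraries (open red circles). The dotted line marks equal change in both assays; XRN1 lies at 3.01 in mRNA and −1.08 in RPF, and XRN2 lies close to the line at 0.36 and 0.54.

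XRN2 mRNA values were slightly higher where XRN1 was lost. It had 102 and 119 CPM in the WT RNA-Seq libraries (3605 and 3905 counts) and 141 and 143 CPM in the XRN1-null libraries (5331 and 5550 counts). Both XRN1-null libraries were above both WT libraries, as in 41% of all genes, but the WT libraries differed from each other by almost as much as the higher of them differed from the XRN1-null libraries. The log2 fold change was 0.36 (standard error 0.0835), a 1.28-fold difference with a 95% interval of 1.12 to 1.47. The difference missed the threshold (edgeR quasi-likelihood FDR = 0.0062), in a comparison where 22.9% of all genes were called higher. It did pass with RLE factors (0.38, FDR = 0.00421 from edgeR), with library totals (0.42, FDR = 0.00252 from edgeR), with a minimum of 10 counts (0.39, FDR = 0.00472 from edgeR), in edgeR's likelihood ratio test (FDR = 0.00035) and in DESeq2 (0.38, FDR = 0.00023). With RNA-Seq counts drawn down to Ribo-Seq depth it was 0.28 and did not (FDR = 0.0315 from edgeR). It was 0.27 without WT RNA-Seq replicate 1 and 0.48 without WT RNA-Seq replicate 2, and was called in both cases. It was not called without XRN1-null RNA-Seq replicate 1 (FDR = 0.0363 from edgeR) or replicate 2 (FDR = 0.044 from edgeR).

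Footprint values of XRN2 were also higher in both XRN1-null libraries. XRN2 had 116 and 160 CPM in the WT Ribo-Seq libraries (223 and 696 counts) and 197 and 210 CPM in the XRN1-null libraries (793 and 673 counts). Both XRN1-null libraries were above both WT libraries, as were those of 32.1% of all genes. The mean was 138 ± 30.9 CPM for WT against 203 ± 9.31 CPM for the XRN1-null libraries (SD, 2 per group). The log2 fold change of 0.54 (standard error 0.164) corresponds to 1.46-fold, with a 95% interval of 1.14 to 1.87, and missed the threshold (edgeR quasi-likelihood FDR = 0.0443). In this test 0.633% of all genes were called higher. In DESeq2 the FDR was 0.0694. The WT libraries set the size of the difference, which was 0.35 without WT Ribo-Seq replicate 1 (FDR = 0.003 from edgeR) and 0.82 without WT Ribo-Seq replicate 2 (FDR = 2.2e-09 from edgeR), and both of these passed. Without XRN1-null Ribo-Seq replicate 1 it was 0.60 (FDR = 0.203 from edgeR) and without replicate 2 it was 0.50 (FDR = 0.302 from edgeR), and neither passed. In the fits with 1 WT library the spread comes from the XRN1-null pair, and the lone WT library is assumed to vary like it. Over all genes, 7.12% had log2 fold changes at or above those of XRN2 in mRNA and RPF alike.

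No change in the TE of XRN2 was called. Its ratio of RPF to mRNA was 1.25 in WT cells, between 0.977 and 1.57 over the 4 pairings of libraries, and 1.44 in XRN1-null cells, between 1.38 and 1.49. The XRN1-null range lay inside the WT range. The log2 change of 0.17 (standard error 0.187; interaction of assay and genotype in edgeR, FDR = 0.632) had a 95% interval of −0.24 to 0.58, or 0.849- to 1.49-fold. Without WT Ribo-Seq replicate 1 the value was −0.01 (FDR = 0.975 from edgeR), and without WT Ribo-Seq replicate 2 it was 0.46 (FDR = 0.0941 from edgeR).

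**Figure D3:**
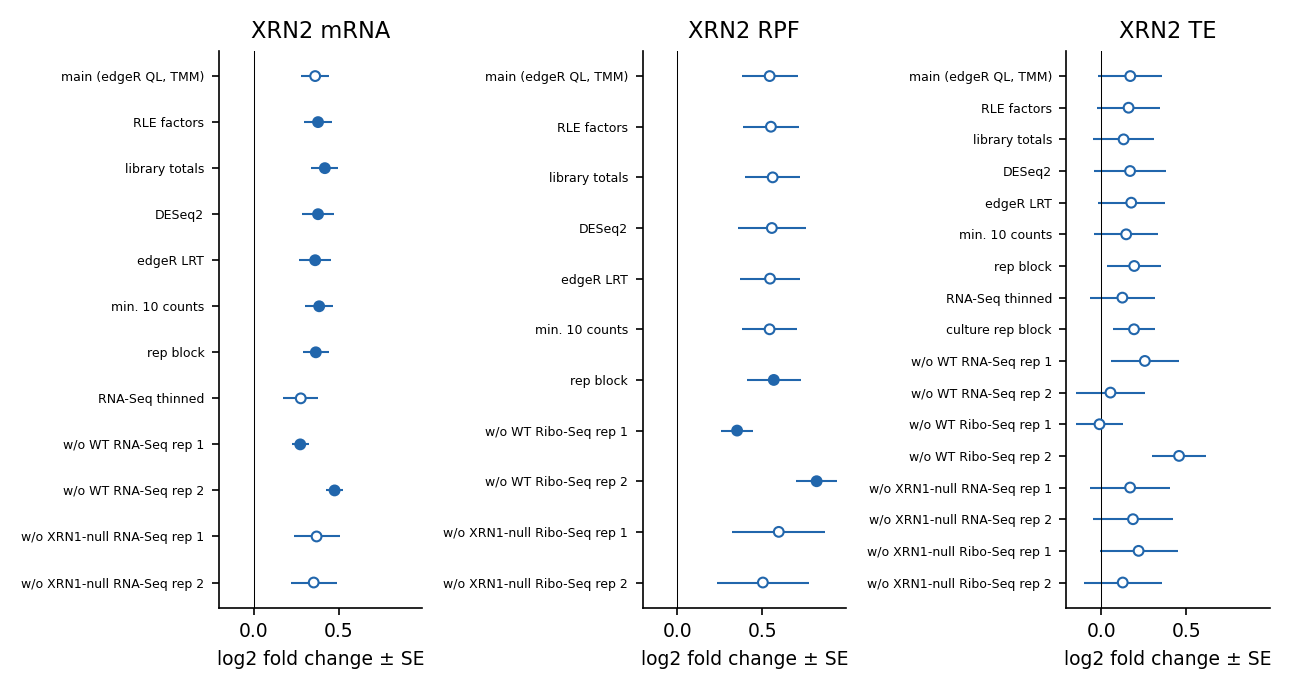
Log2 fold change ± standard error of XRN2 between XRN1-null and WT cells in mRNA, RPF and TE with the main test (edgeR quasi-likelihood, TMM factors), with other scalings and tests, and with each library left out (w/o); filled points passed an FDR of 0.005. The mRNA values lie between 0.27 and 0.48, the RPF values between 0.35 and 0.82, and the TE values between −0.01 and 0.46.

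The genes nearest to XRN2 over the 8 libraries were TP53BP2, ACTR8, SRP68, THOC2 and SWAP70, at distances of 0.0913 to 0.123, against a median of 1.18 over the 8045 genes compared. SRP68 is a protein of the signal recognition particle and THOC2 a subunit of the THO complex for mRNA export. Their log2 fold changes were 0.31 to 0.42 in mRNA and 0.49 to 0.60 in RPF, values whose closeness to those of XRN2 follows from the choice by distance. Of the 5 genes only THOC2 was called, in mRNA (FDR = 0.00176 from edgeR's quasi-likelihood test).

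Levels of the 2 genes were compared per length, using the gene width of the count table for mRNA and the coding length for footprints. In the WT libraries XRN2 mRNA was at 26.8 and 31.3 CPM per kb and XRN1 mRNA at 3.10 and 3.05 CPM per kb. In the XRN1-null libraries XRN2 was at 37 and 37.5 CPM per kb and XRN1 at 26.1 and 23.4 CPM per kb. XRN2 in XRN1-null cells was thus the highest of these levels and XRN1 in WT cells the lowest, while XRN2 in WT cells and XRN1 in XRN1-null cells lay closest to each other. Within a library the ratio of the 2 genes does not depend on the scaling. XRN2 mRNA exceeded XRN1 mRNA 8.63- and 10.2-fold per length in the WT RNA-Seq libraries and 1.42- and 1.60-fold in the XRN1-null libraries.

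XRN2 exceeded XRN1 in footprints per coding length 6.02- and 5.72-fold in the WT Ribo-Seq libraries and 15.5- and 20.3-fold in the XRN1-null libraries. Put the other way, XRN1 reached 0.166 of the XRN2 density in WT replicate 1 (exact 95% binomial interval 0.124 to 0.219) and 0.175 in WT replicate 2 (0.149 to 0.204). It reached 0.0644 (0.0512 to 0.08) and 0.0492 (0.037 to 0.0642) in the XRN1-null libraries, intervals that lay below both WT intervals and cover counting error only. Footprints per coding kb of both genes together were 47.5 and 65.9 CPM for the WT and 73.5 and 77.3 CPM for the XRN1-null libraries. In the WT libraries XRN1 made up 14.2% and 14.9% of this sum, and in the XRN1-null libraries 6.05% and 4.69%. The annotated coding length of XRN1, 5082 nt, was used in both genotypes, although the shifted frame stops after 757 or 773 nt. The XRN1-null densities and shares depend on this length, and densities over the shorter frame were not computed.

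Of 18 nuclear factors that bind XRN2 or act with it in transcription termination and RNA processing, all were in the table. Their mRNA was called higher in 5 and lower in 1, with a median log2 fold change of 0.23, against 22.9% and 23.2% of all genes and a median of −0.01. The direct XRN2-binding proteins CDKN2AIP and CDKN2AIPNL, which share a domain that docks on XRN2, moved in opposite directions. CDKN2AIP rose from 32.4 ± 0.673 to 93.3 ± 3.78 CPM (SD, 2 libraries each), or by 1.52 on the log2 scale (edgeR FDR = 5.05e-06). CDKN2AIPNL fell from 67.9 ± 5.43 to 38.9 ± 0.988 CPM, a log2 fold change of −0.80 (FDR = 8.92e-05 from edgeR). Their footprints had log2 fold changes of 0.65 and −0.83, both short of the threshold (edgeR FDR = 0.0384 and 0.0116). The third protein of this kind, NKRF, had 0.11 in mRNA and 0.31 in RPF and was not called.

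XAB2, a spliceosome-associated factor, rose by 0.93 on the log2 scale, from 29.6 ± 5.54 to 56.4 ± 1.96 CPM in mRNA (SD, 2 libraries each). Other mRNAs called higher in this list were those of TTF2, a termination factor, with 0.49, and DXO, a nuclear enzyme that removes faulty caps and digests RNA from the 5′ end, with 0.38. Footprints of 0 genes of the list were called in edgeR's quasi-likelihood test, against 0.633% of all genes higher and 1.14% lower. The likelihood ratio test called 2 (469 of all genes higher and 596 lower) and DESeq2 called 0 (94 and 118). An unadjusted p below 0.05 in RPF was reached by 7 of the 18, as by 3336 of all 10105 genes. For TE the calls of the quasi-likelihood test were 0, against 0.0495% of all genes higher and 1.78% lower. The likelihood ratio test called 1 (71 of all genes higher and 596 lower) and DESeq2 called 1 (34 and 453). In TE 4 of the 18 were below an unadjusted p of 0.05 in the quasi-likelihood test, as were 2356 of all genes. Without WT RNA-Seq replicate 2, 12 mRNAs of the list were called higher (3410 of all genes), and 3 without each of the XRN1-null libraries in turn (1632 and 1652 of all genes). Footprints of 9 genes were called without WT Ribo-Seq replicate 2, where 1282 of all genes were called higher and 1087 lower, and of 3 without WT Ribo-Seq replicate 1, where 588 and 707 were. Calls over the whole table thus moved with the left-out library as well.

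Of 22 decapping factors and cofactors of XRN1, all were in the table, and 3 were called higher and 5 lower in mRNA, with a median log2 fold change of −0.21. Over all genes 22.9% were higher and 23.2% lower, with a median of −0.01, so the share of lower calls was near that of the table. The lower ones were LSM2, LSM4, LSM5, LSM6 and LSM7, subunits of the ring that binds the 3′ end of deadenylated mRNA and activates decapping. LSM5 fell most, from 105 ± 14.3 to 59.3 ± 1.42 CPM (SD, n = 2 each; log2 fold change −0.82). LSM2 fell by 0.70 and LSM6 by 0.65 on the log2 scale, and LSM1, the subunit that marks the cytoplasmic ring, had −0.20 and was not called. The higher ones were PATL1, DCP1A and DDX6. PATL1, the scaffold that joins the ring to decapping, rose from 98.8 ± 2.87 to 163 ± 0.176 CPM (log2 fold change 0.72). DDX6, the RNA helicase that represses translation and activates decapping, was called in both assays, with 0.36 in mRNA and 0.92 in RPF (FDR = 0.00435 from edgeR's quasi-likelihood test). Over all genes 0.633% were called higher and 1.14% lower in RPF. Its footprints went from 177 ± 32.1 to 336 ± 0.202 CPM (SD, n = 2 each). DCP2, which removes the cap, had 0.29 in mRNA and 0.33 in RPF and was not called. The TE of 0 genes was called in the quasi-likelihood test, against 0.0495% of all genes higher and 1.78% lower. In edgeR's likelihood ratio test 1 was called (71 of all genes higher and 596 lower) and in DESeq2 0 (34 and 453). An unadjusted p below 0.05 in TE was reached by 6 of 22 in the quasi-likelihood test, against 2356 of all 10105 genes. Footprints of 9 genes of the list were called without WT Ribo-Seq replicate 2 (1282 of all genes higher and 1087 lower), of 4 without WT Ribo-Seq replicate 1 (588 and 707) and of 0 without XRN1-null Ribo-Seq replicate 1 (84 and 72) or replicate 2 (71 and 99). In mRNA, 10 were called lower without WT RNA-Seq replicate 2 (3389 of all genes), and 1 was called higher without each XRN1-null library in turn (1632 and 1652 of all genes).

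**Figure D4:**
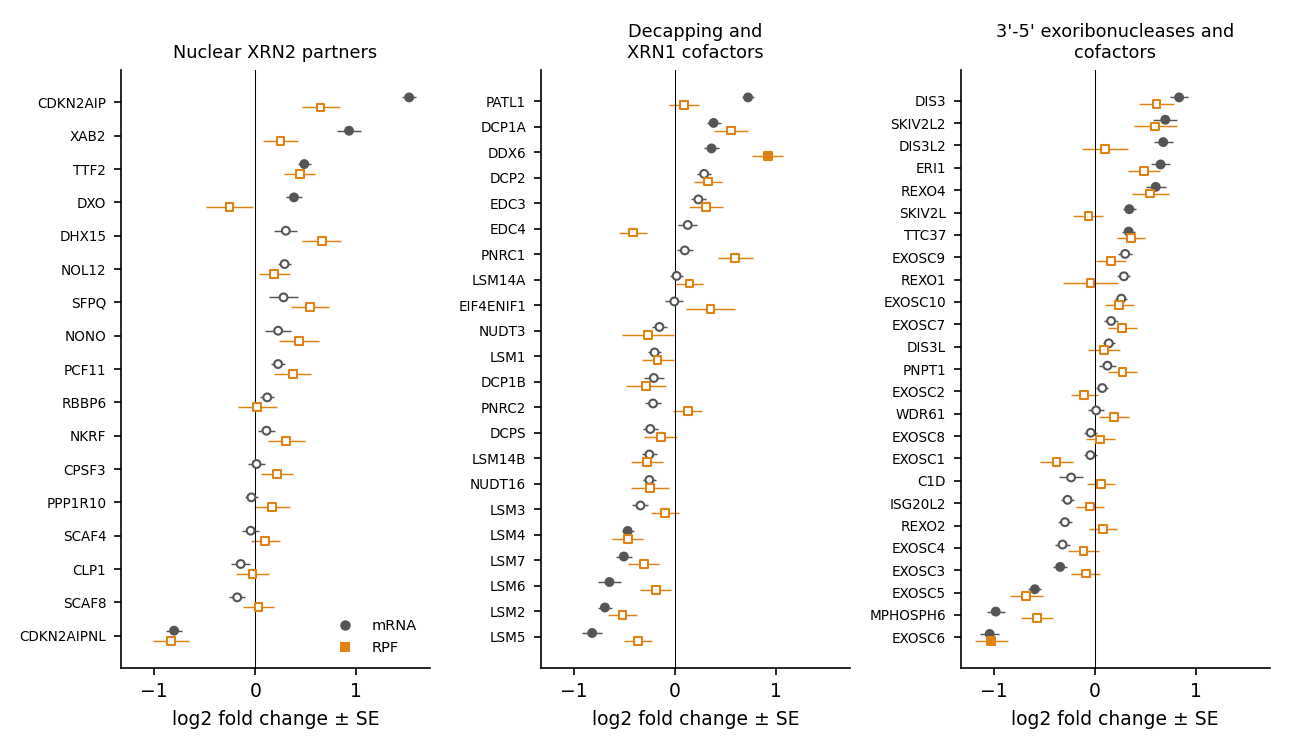
Log2 fold change ± standard error between XRN1-null and WT cells in mRNA (grey circles) and RPF (orange squares) for nuclear partners of XRN2 (17 of the 18 genes), decapping factors and XRN1 cofactors (22 genes) and 3′–5′ exoribonucleases with their cofactors (25 genes), each ordered by mRNA; filled symbols passed an FDR of 0.005 in edgeR's quasi-likelihood test. CDKN2AIP lies highest in the first panel at 1.52, and DDX6 and EXOSC6 are the only genes with filled squares.

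The opposite route of decay, 3′–5′, was represented by 26 genes, of which 25 were in the table and ISG20 was not. Of these, 7 were called higher and 4 lower in mRNA, with a median log2 fold change of 0.12, near the 22.9% and 23.2% of all genes. DIS3, the catalytic subunit of the nuclear exosome, rose from 109 ± 13.4 to 194 ± 3.6 CPM (log2 fold change 0.83), and SKIV2L2, the helicase that feeds RNA to it, rose by 0.70. EXOSC6, a subunit of the exosome ring, fell from 50.4 ± 5.40 to 24.4 ± 1.24 CPM (log2 fold change −1.04), and MPHOSPH6, an exosome cofactor, fell by 0.98 on the log2 scale. EXOSC6 was also the member called in RPF, with −1.03 (FDR = 0.00373 from edgeR's quasi-likelihood test), but DESeq2 called the footprints of 0 genes of this list. Over all genes the quasi-likelihood test called 0.633% higher and 1.14% lower in RPF, and DESeq2 called 94 genes higher and 118 lower. The TE of 0 genes was called by the quasi-likelihood test (0.0495% of all genes higher and 1.78% lower), the likelihood ratio test (71 and 596 genes) and DESeq2 (34 and 453 genes). In the quasi-likelihood test 4 of 25 were below an unadjusted p of 0.05, against 2356 of all 10105 genes. Without WT RNA-Seq replicate 2, 12 were called higher and 8 lower in mRNA, as were 3410 and 3389 of all genes. Footprints of 7 genes were called without WT Ribo-Seq replicate 2, where 1282 of all genes were called higher and 1087 lower, and of 0 without XRN1-null Ribo-Seq replicate 1 (84 and 72 of all genes) or replicate 2 (71 and 99).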

How the data were processed

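RNA-Seq (TruSeq RNA kit, from extracted total RNA) and Ribo-Seq libraries of WT and XRN1-null HEK293T cells were analysed, 2 per genotype and assay. The paper states that its RNA-Seq does not show fragments without a poly(A) tail. Counts per gene do not tell whole transcripts from fragments that keep the tail. Per the methods, the authors used Bowtie2 to filter out rRNA, kept footprints of 29 nt and a neighbouring length chosen for periodicity, mapped reads to hg19 with TopHat2, counted them with QuasR and kept genes above an FPKM limit. They deposited raw counts per gene. Annotation, strand setting, tool versions and whether both mates of a read pair were counted are not given in the sources used here, so counting intervals, which cover counting error only, may be too narrow for RNA-Seq. Because the gene table was filtered by the authors, genes missing from it were not analysed here. A pair of further deposited tables holds only the authors' own comparisons (fold changes, p-values, dispersions and TE) and was not used.

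The members and lists were chosen with earlier results of these data known. Counts were tested with edgeR 4.0.16 (R 4.3.3) by quasi-likelihood F-tests with TMM factors per assay, genotype as the only term, and Benjamini-Hochberg adjustment over 10105 genes; TE was the interaction of assay and genotype over 8 libraries. Genes were called at an FDR below 0.005. Standard errors were taken as the log2 fold change over the root of F, and 95% intervals used the t distribution. Alternatives were RLE factors, library totals, a minimum of 10 counts, edgeR's likelihood ratio test, DESeq2 1.42.0, thinned RNA-Seq, replicate blocks, an FDR of 0.05 and each library left out. Nearest genes were found by Euclidean distance on log2(CPM + 0.5) among 8046 genes with a mean of at least 50 counts in the WT libraries of each assay. Besides XRN1 and XRN2, the genes named were the 5 nearest to each, up to 4 mRNA calls of largest size per list and every RPF or TE call. DCP1A, DCP2, DXO, LSM1, LSM4, LSM7, NKRF and TTF2 were named after their values were seen. One list entry was corrected to MPHOSPH6 after the table was opened, because the older symbol stands there for another gene. Gene models were GENCODE v44lift37 on GRCh37. On simulated counts for 10105 genes, the mRNA test recovered 100% of genes changed by a log2 of 1, the RPF test 68% and the TE test 74%. The simulation gave all genes of an assay the same preset dispersion, unlike the data, and smaller changes were not simulated. Nothing states that replicates came from separate cultures beyond the term biological replicate, so p-values measure the spread between these libraries. No sequence of proteins was used. The values of 1 listed gene and 1 stretch of sequence are not reported here.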

Additional observations from a re-analysis of the deposited data

Results flagged for a closer look

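The values of XRN1 moved in different directions in mRNA and in RPF between WT and XRN1-null cells. Its mRNA log2 fold change was 3.01 and its RPF log2 fold change −1.08, and the difference between them, the log2 change in TE, was −4.09 (FDR = 1.66e-06 from edgeR's quasi-likelihood test of the interaction of assay and genotype). The TE ratio was lower in XRN1-null than in WT cells over the 4 pairings of libraries of each genotype, with ranges of 0.0654 to 0.0894 and 1.03 to 1.51.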

How the results depend on the processing

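The mRNA and TE changes of XRN1 were called in all settings run, at 2.87 to 3.06 and −4.14 to −4.06, and at 2.92 to 3.08 and −4.27 to −3.72 with single libraries left out. XRN1 RPF passed with an FDR of 0.05 (−1.08), library totals (−1.06), the likelihood ratio test (−1.07) and the replicate block (−1.05), and ranged from −1.26 to −0.72 with libraries left out. XRN2 mRNA passed with an FDR of 0.05 (0.36), RLE factors (0.38), library totals (0.42), DESeq2 (0.38), the likelihood ratio test (0.36), a minimum of 10 counts (0.39) and the replicate block (0.37), with 0.27 to 0.48 over left-out libraries. XRN2 RPF passed with an FDR of 0.05 (0.54) and the replicate block (0.57), with 0.35 to 0.82 over left-out libraries. XRN2 TE was not called in any setting, ran from −0.01 to 0.46 with libraries left out, and turned to −0.0102 without WT Ribo-Seq replicate 1; the cause was not tested.

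Calls over all genes moved with the settings too. In mRNA, 2313 higher and 2344 lower became 3319 and 3460 at an FDR of 0.05, 2921 and 2964 in the likelihood ratio test, 2858 and 2805 with the replicate block, 1775 and 1601 with thinned RNA-Seq, and 1632 to 3410 and 1097 to 3389 with libraries left out. In RPF, 64 and 115 became 714 and 847, 469 and 596, and 616 and 665 in the first 3 of these settings, 94 and 118 in DESeq2, and 71 to 1282 and 72 to 1087 with libraries left out. In TE, 5 and 180 became 103 and 653 at an FDR of 0.05, 71 and 596 in the likelihood ratio test, 34 and 453 in DESeq2, 55 and 435 with the culture replicate block, 7 and 190 with the replicate block, 4 and 129 with thinned RNA-Seq, and 0 to 9 and 19 to 230 with libraries left out. For the nuclear partners of XRN2, 5 mRNAs higher became 8 at an FDR of 0.05 and 3 to 12 with libraries left out, and 1 lower became 1 to 2. Their RPF calls went from 0 to 4 at an FDR of 0.05, 2 in the likelihood ratio test, 4 with the replicate block and 0 to 9 with libraries left out, and their TE calls from 0 to 1 at an FDR of 0.05, in DESeq2, in the likelihood ratio test and with the culture replicate block. For decapping factors, 3 higher became 5 at an FDR of 0.05, 1 with thinned RNA-Seq and 1 to 6 with libraries left out, and 5 lower became 11, 8 in the likelihood ratio test and 3 to 10. Their RPF calls went from 1 to 4 at an FDR of 0.05 and 0 to 9 with libraries left out, and TE calls from 0 to 1 at an FDR of 0.05, in the likelihood ratio test and with the culture replicate block. For 3′–5′ genes, 7 higher became 4 to 12 with libraries left out, and 4 lower became 7 at an FDR of 0.05, in the likelihood ratio test and with the replicate block, and 3 to 8 with libraries left out. Their RPF calls went from 1 to 4 at an FDR of 0.05, 0 in DESeq2, 2 in the likelihood ratio test, 5 with the replicate block and 0 to 7.

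The labels do not say that equal replicate numbers mark a shared culture, and with 2 pairs the deviations of same-numbered libraries correlated at 0.190 in RNA-Seq and 0.0803 in Ribo-Seq. With the replicate block the TE change was −4.06 for XRN1 and 0.19 for XRN2. With 2 libraries per group, a left-out fit assumes that the lone library varies like the others. XRN1 had 59 to 217 counts per Ribo-Seq library.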

Other observations

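In the reference sequence the predicted cleavage point of Cas9 lies 62 nt into the 83-nt exon 6 of XRN1 and 21 nt before its end. Up to this point the annotated reading frame holds 689 coding nt, or 13.6% of the coding length. Among the 10105 genes, XRN1 mRNA per kb of gene width was above 6.88% and 6.72% of genes in the WT RNA-Seq libraries and above 67.7% and 64.0% in the XRN1-null libraries. XRN2 mRNA was above 69.3% and 73.0% of genes in the WT and 78.1% and 78.3% in the XRN1-null libraries.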
